A study of Mus musculus with 16 samples.

Results

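The loci described here are those of the dual-specificity phosphatases (Dusp) and of the non-receptor (Ptpn) and receptor-type (Ptpr) protein tyrosine phosphatases. They were chosen by symbol alone from the protein-coding genes of the RefSeq annotation of mouse build GRCm38.p6 (mm10), which gave 62 genes, 24 of them Dusp, 17 Ptpn and 21 Ptpr. The symbol rule also takes Ptprcap, a membrane protein bound to CD45 that is not itself a phosphatase. Each accessibility peak of the deposited count table was given to the gene whose span lay nearest to the middle of the peak, at most 50 kb away. On this basis 55 of the 62 genes (21 Dusp, 16 Ptpn and 18 Ptpr) held 425 of the 82188 peaks, each 501 bp wide. These 55 genes had a median of 6 peaks, against 3 over all 15060 genes with a peak, and Ptprc had the most with 34. Of the 425 peaks, 17.4% lay within 1 kb of a gene end, 55.8% further inside a gene and 26.8% outside, against 23.2%, 50.4% and 26.4% of all assigned peaks. Dusp15, Dusp18, Dusp21, Ptpn20, Ptprcap, Ptprq and Ptprz1 held no peak and are not described further. A peak did lie inside Dusp15 and Dusp18, but nearer to an end of the overlapping genes Ttll9 and 4921536K21Rik, and the peak nearest to Dusp21, 15297 bp away, went to Kdm6a.

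As background, phosphorylation on tyrosine carries the signal of the B cell antigen receptor and of cytokine receptors, and mitogen-activated protein kinases (MAPKs, the ERK, JNK and p38 kinases) carry it on to the nucleus. Dusp enzymes of the MAPK phosphatase class switch these kinases off, and several of their genes are themselves induced by the kinases they restrain. SHP-1 (Ptpn6) acts below inhibitory receptors of B cells, whereas the receptor-type phosphatases CD45 (Ptprc) and CD148 (Ptprj) keep kinases of the Src family ready to signal by removing an inhibitory phosphate.

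The libraries are Omni-ATAC-seq, in which a transposase cuts and tags open chromatin, from spleens of C57BL/6 mice at 8 to 10 weeks of age. Mice were wild type (WT, Smarca4+/+) or heterozygous (HET, Smarca4+/-) for Smarca4, the gene of BRG1, which drives BAF chromatin remodelling complexes by splitting ATP. Each genotype gave 4 libraries labelled CB and 4 labelled CC, described by the series as germinal centre B cells. The labels do not spell out CB and CC and name no sorting gate, immunization or other agent, no Cre driver and no deleted part of Smarca4. They also do not say that replicates came from separate mice, so the spread behind every p-value may be technical.

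Library totals lay between 31696941 and 51011923 counts in the CB libraries and between 3494356 and 7474760 in the CC libraries, so a given CPM value rests on fewer counts in CC than in CB. Pearson correlations between replicates over all genes were 0.995 to 0.998 in CB and 0.967 to 0.985 in CC, within groups. Marker loci of other cells differed between the groups as well. The background for the marker counts in this paragraph is high, since 63.3% of all genes differed between WT CC and WT CB (31.6% higher and 31.7% lower). Of 15 T cell marker loci, 13 were more open and 2 less open in WT CC than in WT CB. Their summed accessibility, in counts scaled to a common library total (CPM), lay at 510 to 527 (WT) and 489 to 509 (HET) in the CB libraries, and at 841 to 954 (WT) and 686 to 828 (HET) in the CC libraries. Of 11 myeloid loci 9 were higher and 2 lower (CB: 293 to 304 CPM for WT, 278 to 289 for HET; CC: 437 to 443 for WT, 406 to 454 for HET), and of 10 NK cell loci 6 were higher and 1 lower (267 to 275, 268 to 272, 326 to 377 and 313 to 321 CPM in the same order). Of 8 B cell loci 6 were lower and none was higher, and of 10 germinal centre loci 8 were lower and none was higher (2300 to 2380, 2300 to 2350, 1440 to 1590 and 1640 to 1860 CPM). Of 10 loci of naive and memory B cells, 7 were higher and 1 was lower. Cxcr4, the chemokine receptor that marks centroblasts, was lower in WT CC (-0.33 on the log2 scale), and so were Cd83 (-0.21) and Cd86 (-0.79), markers of centrocytes. No marker of any list was at 0 in any group. The part of these markers, and of depth, in the CC values below was not tested.

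Promoter sequence is shown for the loci whose start-site peaks carry the main differences. RefSeq windows of GRCm38.p6, from 250 bases before to 50 bases after an annotated start, were found for 50 of the 62 genes (67 windows), and at 33 genes a peak covered at least 150 bp of a window. The windows of Ptprk (chr10:28074570-28074869, plus strand), Ptprm (chr17:67354410-67354709, minus strand), Ptpn14 (chr1:189728018-189728317, plus strand) and Ptpre (chr7:135537574-135537873, plus strand) lay under peaks that were more open in CC than in CB. Those of Dusp14 (chr11:84068308-84068607, minus strand) and Dusp8 (chr7:142095235-142095534, minus strand) lay under the start-site peaks with the largest falls. The window of Dusp10 (chr1:184034131-184034430, plus strand) is shown for a start site that moved against most of its locus. That of Dusp6 (chr10:99262981-99263280, plus strand) was wide open in every group, and more so in CC than in CB. That of Dusp1 (chr17:26508423-26508722, minus strand) belongs to an immediate early gene. Capitals mark matches on either strand to TGACGTCA (the cyclic AMP response element), GGGGCGGGG (a GC box) or CACGTG (an E box), which do not overlap one another in these windows. All sequences run 5′ to 3′ on the strand of the gene.
Ptprk: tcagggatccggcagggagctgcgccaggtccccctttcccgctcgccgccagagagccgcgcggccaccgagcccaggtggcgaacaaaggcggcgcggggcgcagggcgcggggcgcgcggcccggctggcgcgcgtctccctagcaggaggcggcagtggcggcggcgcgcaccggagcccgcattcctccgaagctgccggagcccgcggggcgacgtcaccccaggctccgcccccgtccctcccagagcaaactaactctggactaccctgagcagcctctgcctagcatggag
Ptprm: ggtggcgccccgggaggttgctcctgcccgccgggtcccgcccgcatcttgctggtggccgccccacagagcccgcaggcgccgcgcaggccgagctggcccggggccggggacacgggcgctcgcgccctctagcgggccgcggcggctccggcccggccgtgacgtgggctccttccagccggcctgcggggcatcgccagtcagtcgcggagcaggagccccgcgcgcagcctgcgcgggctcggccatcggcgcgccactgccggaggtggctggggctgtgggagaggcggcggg
Ptpn14: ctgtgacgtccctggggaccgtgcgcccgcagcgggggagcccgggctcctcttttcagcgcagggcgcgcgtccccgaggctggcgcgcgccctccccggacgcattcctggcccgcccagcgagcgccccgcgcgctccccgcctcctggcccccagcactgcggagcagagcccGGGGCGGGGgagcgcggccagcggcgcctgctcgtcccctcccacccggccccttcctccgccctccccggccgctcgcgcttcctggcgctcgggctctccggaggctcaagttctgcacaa
Ptpre: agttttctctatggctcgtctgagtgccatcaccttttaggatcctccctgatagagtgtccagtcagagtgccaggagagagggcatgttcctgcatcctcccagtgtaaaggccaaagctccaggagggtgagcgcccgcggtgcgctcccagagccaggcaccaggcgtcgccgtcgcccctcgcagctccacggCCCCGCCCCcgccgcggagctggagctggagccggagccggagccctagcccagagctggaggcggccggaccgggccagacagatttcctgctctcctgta
Dusp14: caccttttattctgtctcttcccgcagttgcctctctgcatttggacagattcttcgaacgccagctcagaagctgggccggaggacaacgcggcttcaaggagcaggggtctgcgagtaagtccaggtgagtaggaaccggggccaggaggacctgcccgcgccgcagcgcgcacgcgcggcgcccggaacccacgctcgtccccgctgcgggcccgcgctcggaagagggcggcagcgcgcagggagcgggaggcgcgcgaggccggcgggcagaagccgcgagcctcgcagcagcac
Dusp8: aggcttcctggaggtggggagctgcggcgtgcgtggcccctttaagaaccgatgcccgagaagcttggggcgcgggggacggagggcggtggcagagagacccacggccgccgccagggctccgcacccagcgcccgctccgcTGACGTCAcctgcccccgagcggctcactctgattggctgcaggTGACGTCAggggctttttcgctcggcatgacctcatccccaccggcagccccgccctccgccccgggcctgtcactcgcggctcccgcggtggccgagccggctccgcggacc
Dusp10: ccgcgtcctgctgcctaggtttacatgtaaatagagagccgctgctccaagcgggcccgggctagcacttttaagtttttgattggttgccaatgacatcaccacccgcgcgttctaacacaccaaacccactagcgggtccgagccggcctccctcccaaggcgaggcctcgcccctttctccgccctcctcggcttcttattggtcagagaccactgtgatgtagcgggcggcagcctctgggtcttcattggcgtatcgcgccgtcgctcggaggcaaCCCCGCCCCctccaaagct
Dusp6: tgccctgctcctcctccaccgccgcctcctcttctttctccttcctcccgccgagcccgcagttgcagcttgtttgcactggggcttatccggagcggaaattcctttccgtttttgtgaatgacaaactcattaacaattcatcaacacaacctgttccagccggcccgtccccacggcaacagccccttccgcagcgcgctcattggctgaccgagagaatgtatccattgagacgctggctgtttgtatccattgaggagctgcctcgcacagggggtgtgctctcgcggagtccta
Dusp1: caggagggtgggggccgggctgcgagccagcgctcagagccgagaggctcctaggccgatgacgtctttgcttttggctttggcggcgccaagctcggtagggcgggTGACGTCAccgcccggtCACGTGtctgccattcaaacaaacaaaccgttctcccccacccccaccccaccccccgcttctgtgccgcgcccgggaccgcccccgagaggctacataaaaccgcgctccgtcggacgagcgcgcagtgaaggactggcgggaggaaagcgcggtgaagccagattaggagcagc

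The windows were rich in CG pairs, with a median of 19 over the 67 phosphatase windows against 13 over all 21263 windows of the table, and a median GC content of 62.3% against 56.3%. Among the windows shown, Ptprk held 38 CG pairs, Ptprm 43, Ptpn14 40, Dusp14 37, Dusp8 34, Dusp1 31, Dusp10 24, Ptpre 20 and Dusp6 19. TGACGTCA was found in 7.5% of the phosphatase windows (5 of 67: Dusp1, Dusp8, Ptpn11, Ptprs and Ptpru) and in 2.2% of all windows, and Dusp8 held it at 2 places. GGGGCGGGG was found in 25.4% against 15.4%, ACTTCCG (an ETS site) in 1.5% against 8.4%, CACGTG in 4.5% against 7.8% and TGACTCA (an AP-1 site) in 4.5% against 4.7%. One form each of the serum response element and of the kappa B site was in none of the 67 windows and in 0.1% and 0.2% of all windows. A match describes letters in the window and is not evidence of binding.

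The first comparison asks how accessibility differed between CC and CB in wild-type mice. In WT CC the adhesion-type receptor phosphatases Ptprk and Ptprm and the FERM-domain phosphatase Ptpn14 were several-fold more open than in WT CB, while Dusp14 was the most strongly closed and the 3 phosphatases directed at JNK and p38 (Dusp8, Dusp10 and Dusp16) all fell. SHP-1 (Ptpn6), the main inhibitory phosphatase of B cells, did not pass the test in sum, although 3 of its 8 peaks were higher and 2 lower. By the edgeR quasi-likelihood test with Benjamini-Hochberg adjustment over all genes (adjusted p below 0.05), 39 of the 55 loci differed, 20 higher and 19 lower in CC. The background was high, since 63.3% of all genes passed in this comparison (31.6% higher and 31.7% lower), and the members' share, 39 of 55, stands close to it. The libraries of both groups did not overlap at 34 of the 55 (61.8%), against 53.8% of all genes. The median log2 change was 0.03 over the 55 loci and -0.01 over all genes. The 425 peaks together held 0.555 to 0.562% of the counts of a WT CB library and 0.51 to 0.517% of those of a WT CC library. In bulk libraries, fewer cells with an open site and a less open site in each cell cannot be told apart.

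**Figure D1:**
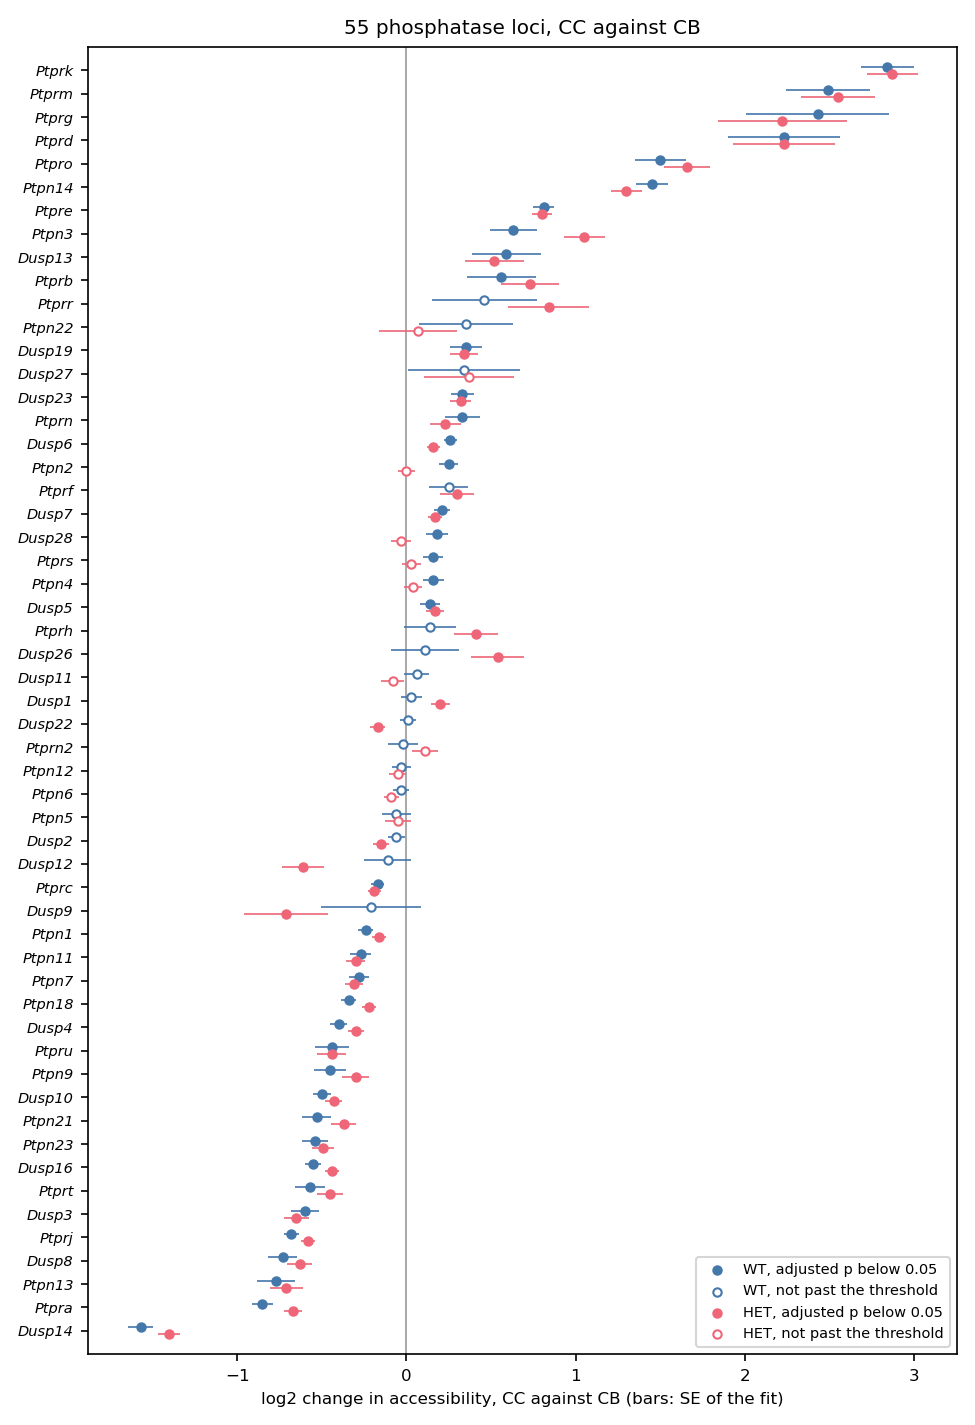
Log2 change in summed peak accessibility of CC against CB for each of the 55 loci (horizontal axis), in WT (blue) and HET (red), with the standard error of the fit as bars; filled points have an adjusted p below 0.05. Ptprk stands highest in both genotypes (2.84 in WT and 2.87 in HET) and Dusp14 lowest (-1.57 and -1.40), and most loci lie within 1 of 0.

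Of the 18 receptor-type loci 9 rose and 5 fell from WT CB to WT CC (median log2 change 0.29). Over all genes 31.6% rose and 31.7% fell, a background that holds for the counts of the other classes below too. Ptprk (chr10:28074820-28597397), a receptor with a MAM ectodomain that binds its own kind on neighbouring cells, stood at 8.16, 9.58, 7.11 and 9.97 CPM in the WT CB libraries and at 52.2, 63.9, 75.8 and 57.6 in WT CC. In HET the values were 7.51, 6.17, 8.58 and 5.51 for CB and 67.9, 46.1, 51.6 and 37.7 for CC. All CC libraries lay above all CB libraries, and the change was 7.16-fold in WT (log2 2.84, SE 0.156, edgeR quasi-likelihood adjusted p = 4.59e-16). Its 11 peaks all rose, by 2.09 to 3.45 on the log2 scale, from the start-site window printed above (1.36 to 10.2 CPM) to a peak inside the gene at chr10:28593763-28594263 (1.38 to 12.3 CPM). Ptprm, the closest relative of Ptprk in structure, held a single peak, over its start site. It stood at 1.59, 2.26, 1.65 and 2.29 CPM in WT CB and 8.6, 12.4, 14.98 and 7.95 in WT CC, again with no overlap (2.49, SE 0.246, adjusted p = 2.94e-11). The other MAM receptors went the other way. Ptprt fell from 52.9 ± 2.56 to 35.5 ± 4.85 CPM (mean ± SD, n = 4; -0.57, adjusted p = 4.22e-07), and Ptpru, named here after its value was seen, fell by 0.44 on the log2 scale.

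Other receptors that rose were nearly closed in CB. Ptprd, an adhesion receptor of synapses, and Ptprg, with a carbonic anhydrase-like ectodomain, held 1 peak each. Ptprd went from 1.15 ± 0.607 to 5.33 ± 0.634 CPM (2.23, adjusted p = 2.8e-07) and Ptprg from 0.686 ± 0.109 to 3.74 ± 2.54 (2.43, adjusted p = 4.48e-06), each without overlap between libraries but with few counts. Ptpro, of which a short form acts on the kinase Syk in B cells, stood at 7.34, 8.87, 7.25 and 6.64 CPM in WT CB and at 20.6, 21.1, 21.4 and 21.6 in WT CC, and all 4 of its peaks rose. Its summed change was 1.5 (log2, SE 0.149, adjusted p = 3.5e-11).

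Ptpra and Ptpre, sister receptors with short ectodomains that act on Src-family kinases, moved in opposite directions. Ptpre stood at 63.8, 66.1, 66.8 and 64.3 CPM in WT CB and 97.2, 124, 113 and 124 in WT CC (0.81, SE 0.0646, adjusted p = 1.06e-13), with 11 of 14 peaks higher and 1 lower. Ptpra stood at 183, 191, 186 and 187 CPM in WT CB and 89.8, 112, 89.3 and 122 in WT CC (-0.85, SE 0.0618, adjusted p = 8.26e-15), with 10 of 12 peaks lower and none higher. The Ptpra start-site peak was not among the changes (44.4 and 39.96 CPM, -0.15, adjusted p = 0.185). CD148 (Ptprj, chr2:90429756-90580694) stood at 490.2, 488, 487 and 481 CPM in WT CB and at 269.6, 302, 335 and 311 in WT CC. Every CC library lay below every CB library (-0.68, SE 0.0456, adjusted p = 1.16e-15), and 25 of its 30 peaks fell while none rose. CD45 (Ptprc, chr1:138062859-138175756), which marks all nucleated blood cells, fell by little in sum: 473, 479, 463 and 489 CPM in WT CB against 412, 399, 419 and 459 in WT CC (-0.17, SE 0.0405, adjusted p = 0.000332). Ptprs, a receptor for proteoglycans, rose by 0.16 (adjusted p = 0.0195).

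**Figure D2:**
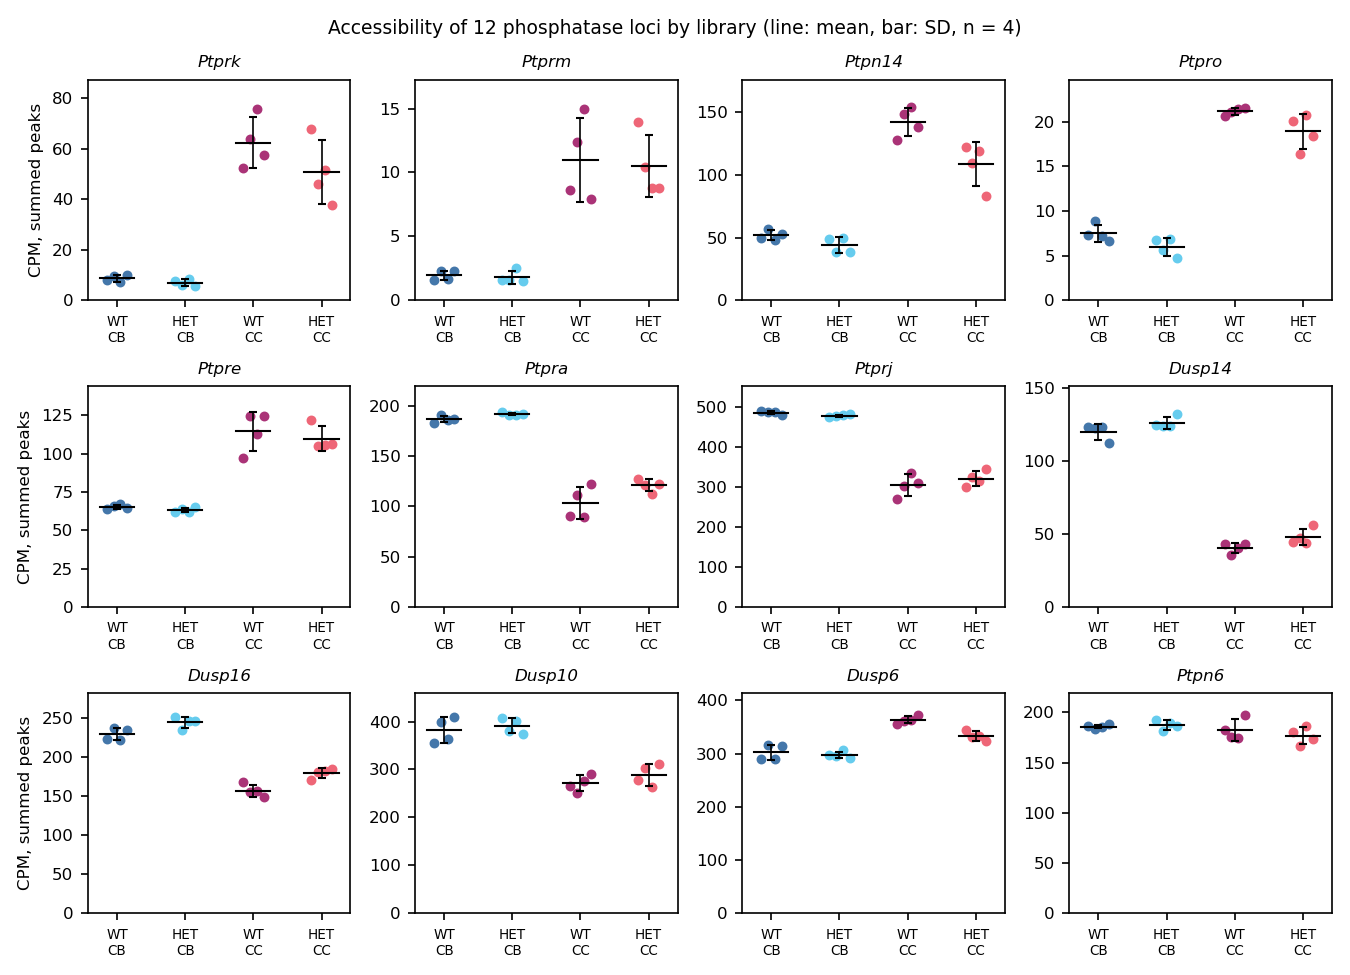
Accessibility of 12 loci in CPM of their summed peaks (vertical axis, from 0) for each of the 16 libraries, by group; dots are libraries, lines means and bars SD (n = 4). Ptprk, Ptprm, Ptpn14, Ptpro and Ptpre stand higher in both CC groups than in both CB groups, Ptpra, Ptprj, Dusp14, Dusp16 and Dusp10 lower, and the groups overlap at Ptpn6.

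Of the 16 non-receptor loci 4 were higher and 8 lower in WT CC (median -0.15). Ptpn14 (chr1:189728216-189876695), a FERM-domain phosphatase that binds the Hippo pathway effector YAP, stood at 50.04, 57.2, 48 and 52.7 CPM in WT CB and at 128, 148, 154 and 138 in WT CC. The groups did not overlap (1.45, SE 0.0963, adjusted p = 3.93e-14), and 15 of 17 peaks rose while none fell. Its start-site peak went from 2.01 to 11.01 CPM (2.46). Ptpn3, which carries FERM and PDZ domains, rose as well, from 12.7 ± 1.22 to 19.7 ± 4.95 CPM (0.63, adjusted p = 0.000152). Ptpn13, a large FERM and PDZ phosphatase, fell from 82.7 ± 11 to 48.5 ± 5.58 CPM (-0.77, SE 0.115, adjusted p = 8.3e-07), and so did Ptpn21, the nearest relative of Ptpn14 and named after its value was seen (-0.53).

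SHP-1 (Ptpn6, chr6:124720707-124738709) stood at 186, 184, 185 and 188 CPM in WT CB and 183, 175, 174 and 198 in WT CC, with overlapping groups (-0.03, SE 0.0476, adjusted p = 0.643). SHP-2 (Ptpn11), which unlike SHP-1 promotes growth factor signalling, fell from 96.5 ± 2.81 to 80.2 ± 8.15 CPM (-0.27, adjusted p = 0.000258), although its peak with the most counts rose (0.58). Ptpn7, a lymphoid phosphatase of ERK, fell by 0.28 on the log2 scale, and Ptpn1, the enzyme PTP1B, by 0.24. Ptpn2, which restrains JAK and STAT signalling, rose from 97.5 ± 1.07 to 116 ± 9.27 CPM (0.25, adjusted p = 0.000233). Ptpn12, the enzyme PTP-PEST, did not pass (-0.03, adjusted p = 0.67). Ptpn22, a brake on antigen receptor signalling, held only 2 peaks with 2.92 ± 0.205 CPM in sum in WT CB and 3.69 ± 1.2 in WT CC and did not pass either (adjusted p = 0.278).

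Of the Dusp loci, all 3 phosphatases directed at JNK and p38 fell in WT CC (median -0.55), where 31.7% of all genes fell. Dusp16 stood at 223, 237, 222 and 234 CPM in WT CB and 167, 154, 156 and 148 in WT CC (-0.55, SE 0.0478, adjusted p = 1.17e-12). Dusp10 stood at 356, 399.9, 364 and 409.9 CPM in WT CB and at 266, 252, 275 and 291 in WT CC (-0.50, SE 0.0527, adjusted p = 1.73e-10). Dusp8, whose window holds TGACGTCA at 2 places, went from 66.2 ± 3.35 to 39.8 ± 5.57 CPM (-0.73, adjusted p = 2.04e-09). The libraries of WT CB and WT CC did not overlap at any of these 3 loci, as at 53.8% of all genes.

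Of the 3 cytoplasmic phosphatases directed at ERK, 2 rose and none fell. Dusp6 (chr10:99263231-99267489), a feedback inhibitor of ERK, stood at 290.4, 316, 290.3 and 314 CPM in WT CB and at 356, 361, 364 and 372 in WT CC, without overlap (0.26, SE 0.0404, adjusted p = 5.05e-07). In the edgeR quasi-likelihood fit of peaks, its start-site peak rose from 69.4 ± 4.01 to 99.6 ± 3.61 CPM in WT (0.52, adjusted p = 8.17e-11) and by 0.42 in HET. Dusp7, named after its value was seen, rose by 0.21, and Dusp9 held 1 peak at 3.7 ± 0.574 and 3.22 ± 1.37 CPM that did not pass (adjusted p = 0.558). Of the 4 inducible nuclear phosphatases 1 rose and 1 fell. Dusp5, specific for ERK, rose by 0.14 (adjusted p = 0.0293), with overlapping libraries, and Dusp4 fell from 232 ± 7.07 to 176 ± 9.55 CPM (-0.40, adjusted p = 1.15e-08). The immediate early genes Dusp1 (145, 128, 157 and 127 CPM in WT CB and 144, 132, 152 and 140.2 in WT CC, adjusted p = 0.674) and Dusp2 (-0.06, adjusted p = 0.3) did not pass.

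Of the 11 atypical Dusp loci 4 rose and 2 fell. Dusp14 (chr11:84048033-84069256), known as a restraint on T cell receptor signalling, showed the largest fall of any of the 55 loci. It stood at 123, 122, 123 and 112 CPM in WT CB and 42.7, 35.3, 39.9 and 43.1 in WT CC, and at 124, 123, 124 and 132 in HET CB and 44.2, 46.8, 43.7 and 56.01 in HET CC. Every CC library lay far below every CB library, and the WT change was to 0.337 of the CB level (-1.57, SE 0.0756, adjusted p = 9.69e-20). All 7 of its peaks fell, by log2 -2.07 to -1.07. Dusp3, which acts on ERK and JNK, fell from 76.96 ± 4.09 to 50.7 ± 4.03 CPM (-0.60, adjusted p = 4.62e-08), and Dusp22, which acts on the kinase Lck in T cells, did not pass (0.01, adjusted p = 0.85).

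Levels per peak are given since all peaks have the same width, but such a mean also depends on the number and place of the peaks of a locus. Per 501 bp peak, the mean level in WT CB was highest at Dusp23 (59.3 CPM, 1 peak), Dusp28 (41.4, 2 peaks), Dusp6 (37.8, 8 peaks) and Dusp19 (31.8, 1 peak). It was lowest at Ptprg (0.686, 1 peak), Ptprk (0.791, 11 peaks), Ptprd (1.15, 1 peak) and Ptpn22 (1.46, 2 peaks). Ptpn6 stood at 23.2 CPM per peak and Dusp14 at 17.1. In WT CC Ptprk stood at 5.67 CPM per peak and Ptprm at 11, so the strongest risers remained below Ptpn6 (22.8) and Dusp6 (45.4) in level.

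Summed values hid opposite movements within loci. At peak level 281 of the 425 peaks differed between WT CC and WT CB, 122 higher and 159 lower, where 57.9% of all peaks passed (30.2% higher and 27.7% lower). Of the 237 member peaks inside a gene and over 1 kb from its ends, 42.2% were lower and 25.3% higher, against 31.4% and 27.1% of all such peaks. Of the 74 within 1 kb of a gene end, 33.8% were lower and 33.8% higher, against 23.7% and 32.7%. Of the 44 loci with 2 or more peaks, 21 held peaks called in both directions, and at 8 of these the summed locus did not pass. Among these 8 were Dusp1, Dusp2, Dusp22, Ptpn6 and Ptpn12. The share of loci with peaks called in both directions (47.7%) stands above the 31.9% over all genes with 2 or more peaks, but loci with more peaks have more chances of this. Among those with 6 or more peaks it was 67.9% of 28 against 61.4%, and among those with 10 or more 64.7% of 17 against 77.1%.

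The widest spread lay at Ptpn13 (chr5:103425192-103598361), whose peak upstream at chr5:103387361-103387861 rose from 0.496 ± 0.12 to 4.45 ± 0.805 CPM (3.15, adjusted p = 7.53e-11) while the peak inside it at chr5:103437708-103438208 fell from 7.22 ± 0.279 to 1.75 ± 0.602 (-2.03, adjusted p = 1.12e-08). Ptprn2, a protein of secretory granules (a spread of 3.90 between its highest and lowest log2 change), Ptpre (3.84), Ptpn12 (3.70) and Ptpn2 (3.58) followed. At Ptpre the peak inside the gene at chr7:135542199-135542699 rose by 3.23. CD45 held 8 peaks that rose and 10 that fell among its 34, from -1.46 at chr1:138148718-138149218 inside the gene to 1.96 at chr1:138188071-138188571 upstream. Dusp10 held 13 falling peaks among 16, all but the start site and 1 other of those that changed. Its start-site peak, the window of which is printed above, rose from 112 ± 10.7 to 140.3 ± 5.19 CPM (0.33, adjusted p = 3.35e-06), and the peak at chr1:184041805-184042305 inside the gene fell from 18.01 ± 1.88 to 5.48 ± 1.92 (-1.71). At Dusp16 the start-site peak did not pass (0.05, adjusted p = 0.658) and 8 of 12 peaks fell, the most strongly at chr6:134785317-134785817 (17.1 ± 0.907 to 4.37 ± 1.15 CPM, -1.97, adjusted p = 1.08e-13). In the fit of peaks, the peak with the most counts rose at Dusp10 (0.33, the start-site peak), Ptpn11 (0.58) and Ptprc (0.24, adjusted p = 0.0125), where the summed locus fell. Peaks and summed loci were scaled in separate fits, and over the 3156 genes with 1 peak the summed fit gave log2 changes lower by a median of 0.06. Of the 35 peaks over a RefSeq promoter window, 14 rose and 11 fell in WT CC. Promoter peaks of all genes were not counted, and of all peaks within 1 kb of a gene end 32.7% rose and 23.7% fell.

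**Figure D3:**
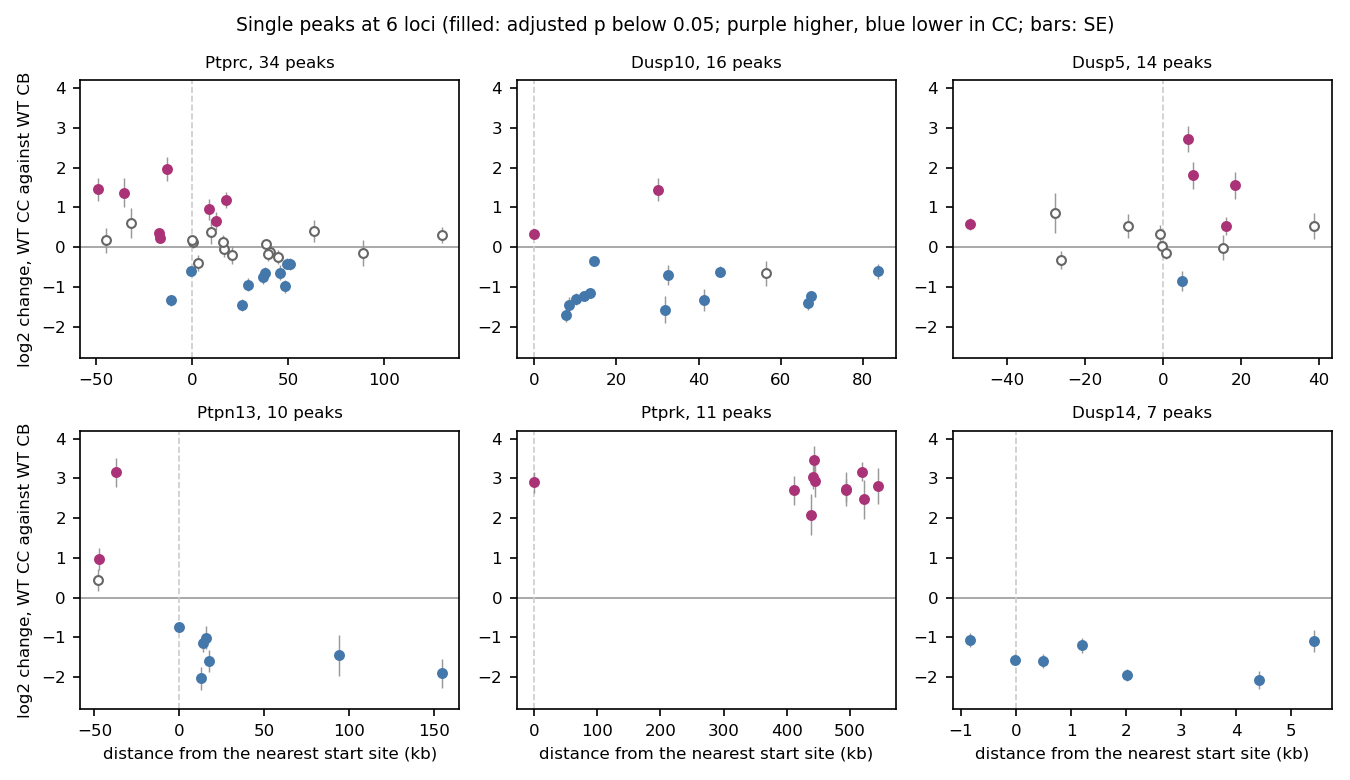
Log2 change of WT CC against WT CB for each peak (vertical axis, bars SE) by its distance from the nearest annotated start site in kb (horizontal axis, negative upstream) at 6 loci; filled points have an adjusted p below 0.05, purple higher and blue lower in CC. All peaks of Ptprk rose and all of Dusp14 fell, whereas Ptprc, Dusp10, Dusp5 and Ptpn13 held peaks of both kinds.

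The same comparison in heterozygous mice takes its group means from other libraries than that in WT, although all 16 libraries share 1 estimate of the spread. In HET CC, 44 of the 55 loci differed from HET CB, 21 higher and 23 lower, where 62.8% of all genes passed (31.1% higher and 31.7% lower). All 19 loci that fell in WT also fell in HET (100% of the WT and 82.6% of the HET falls), and 16 loci rose in both (80.0% of the WT and 76.2% of the HET rises). No locus was called in opposite directions, and the HET libraries did not overlap at 39 of the 55 (70.9%), against 56.8% of all genes. Ptprk rose by 2.87 (SE 0.149, adjusted p = 1.24e-16), Ptprm by 2.55, Ptprd by 2.23, Ptprg by 2.22, Ptpro by 1.66, Ptpn14 by 1.30 and Ptpn3 by 1.05. Dusp14 fell by 1.40 (SE 0.0641, adjusted p = 1.84e-20), Ptpn13 by 0.71, Ptpra by 0.67, Dusp3 by 0.65, Dusp8 by 0.63 and Ptprj by 0.58. At peak level 278 of the 425 differed (120 higher and 158 lower, where 58.8% of all peaks passed, 30.8% higher and 28.1% lower), of which 101 rises and 143 falls were shared with WT. The overlap between genotypes was not counted over all genes or all peaks, so it is not shown to be particular to these loci.

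Some loci passed in HET only, which does not show that the genotypes differ there, and none of the 55 passed in the test of that difference (the interaction, below). Ptprr, a phosphatase of ERK, rose by 0.84 in HET and stood at 0.46 in WT (adjusted p = 0.198). Dusp9 fell by 0.71 in HET on a level of 4.62 ± 0.544 CPM in HET CB, and Dusp12, an atypical phosphatase with a zinc-binding domain that also holds 1 peak, fell by 0.61. Dusp1 rose by 0.20 (131, 135, 129 and 133 CPM in HET CB and 149, 154, 155 and 148 in HET CC, without overlap), Dusp2 fell by 0.15 and Dusp22 by 0.17. Conversely, Ptpn2 (0.00, adjusted p = 0.943) and Ptprs (0.03, adjusted p = 0.642) passed in WT and not in HET. Ptpn6 did not pass in sum in HET either (-0.09, adjusted p = 0.0819), with 2 of its 8 peaks higher and 2 lower.

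The comparison of HET CC with WT CC asks what heterozygous loss of Smarca4 went with in these cells. It gave 3 calls among the 55 loci, Dusp16 and Ptpra higher and Ptpn14 lower in HET, where 6.65% of all genes passed (3.21% higher and 3.43% lower). At Dusp16 the HET CC libraries stood at 169.7, 181, 182 and 185 CPM, all above the WT CC libraries given above (log2 0.20, SE 0.0515, edgeR quasi-likelihood adjusted p = 0.0178). At Ptpn14 they stood at 122, 109, 119 and 83.4 CPM, all below WT CC (-0.39, SE 0.101, adjusted p = 0.019). At Ptpra they stood at 127, 121, 113 and 122 CPM, overlapping with WT CC (0.23, SE 0.0684, adjusted p = 0.0362). These calls were not stable to the loss of 1 library. That of Dusp16 ended without WT CC replicate 4 or HET CC replicate 2 or 4, that of Ptpn14 without WT CC replicate 2 or 3 or HET CC replicate 4, and that of Ptpra without any of 5 libraries (WT CC replicates 1 and 3 and HET CC replicates 1, 2 and 4). The count was 0 without HET CC replicate 4, 1 without WT CC replicate 3 or HET CC replicate 2 and 5 without HET CC replicate 1 or 3. It was 1 with only the CC libraries fitted, where 271 of all genes passed against 1001 in the main fit, and 6 by DESeq2.

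Marker loci differed between HET CC and WT CC as well. Of the 10 germinal centre loci 6 were higher in HET CC and none was lower, of the 10 naive and memory B cell loci 6 were lower and none was higher, and of the 15 T cell loci 5 were lower and none was higher. Over all genes 3.21% were higher and 3.43% lower. The part of these marker loci in the genotype values was not tested. Dusp6 stood at 345, 331, 333 and 323 CPM in HET CC, all below WT CC, and did not pass (-0.13, adjusted p = 0.0621). Dusp14 stood all above WT CC and did not pass (0.25, adjusted p = 0.0942). Dusp22 and Ptpn18, a PEST-type phosphatase named after its value was seen, were the other loci whose libraries did not overlap, which makes 6 of the 55 (10.9%) with Dusp6, Dusp14, Dusp16 and Ptpn14, against 7.08% of all genes. In CB, where no locus passed, 10 of the 55 (18.2%) did not overlap between genotypes, against 11.7% of all genes.

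At peak level 13 of the 425 differed between HET CC and WT CC, 9 higher and 4 lower, where 2.06% of all peaks passed (1.08% higher and 0.979% lower). All 9 that were higher in HET lay inside genes, over 1 kb from either end: 2 each in Dusp16, Ptpra and Ptpn12 and 1 each in Dusp10, Ptprc and Ptpn13. Of the 425 peaks 237 lie there, and 3.8% of these were higher, against 1.27% of all peaks inside genes, 0.605% of those within 1 kb of a gene end and 1.11% of those outside. At Dusp16 the peak at chr6:134785317-134785817 stood at 5.56, 4.71, 2.82 and 4.38 CPM in WT CC and 7.22, 11.1, 6.8 and 8.23 in HET CC (0.96, SE 0.227, adjusted p = 0.0163), and that at chr6:134752162-134752662 at 7.78, 7.95, 9.3 and 7.94 in WT CC and 15.5, 12.01, 13.6 and 13.7 in HET CC (0.72, adjusted p = 0.0159). In both, every HET CC library lay above every WT CC library. The peak of CD45 at chr1:138148718-138149218 stood at 4.45, 10.3, 6.48 and 11.2 CPM in WT CC and 14.8, 12.8, 13.97 and 14.3 in HET CC (0.78, SE 0.182, adjusted p = 0.0154), although the summed locus did not pass (0.01, adjusted p = 0.945). The peak of Ptpn13 at chr5:103437708-103438208 had the largest difference (2.5, 1.18, 1.97 and 1.37 against 3.96, 4.35, 3.21 and 4.66 CPM, 1.21, SE 0.344, adjusted p = 0.0456). Its WT CC values rest on few counts, since the WT CC totals were 3494356 to 3750936. The remaining 5 were those of Ptpn12 at chr5:21032580-21033080 (0.65) and chr5:21033294-21033794 (0.91), Ptpra at chr2:130534946-130535446 (0.63) and chr2:130540182-130540682 (0.54) and Dusp10 at chr1:184046280-184046780 (0.64), with adjusted p-values from 0.0154 to 0.0487.

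The 4 peaks that were lower in HET CC were those of Ptpn14 at chr1:189801197-189801697 (27.8, 36.2, 31.9 and 39.7 CPM in WT CC and 27.5, 19.9, 25.7 and 14.6 in HET CC, -0.64, SE 0.141, adjusted p = 0.0102), Ptpn11 at chr5:121106843-121107343 (-0.42, adjusted p = 0.0379), Ptpn2 within 1 kb of a gene end (-0.28, adjusted p = 0.0335) and Dusp6, upstream at chr10:99261549-99262049 (83.1, 98.6, 89.6 and 89.8 CPM in WT CC and 82.4, 74.01, 79.9 and 64.3 in HET CC, -0.27, adjusted p = 0.0387). The libraries overlapped at the Ptpn11 peak, the Dusp10 peak and the Ptpra peak at chr2:130540182-130540682, and at none of the other 10. The called peaks were picked by the test of HET CC against WT CC on the same libraries, which favours such separation. The share without overlap was not counted over all peaks or over all called peaks, so this separation adds nothing to the calls. The comparison of WT CC with WT CB shares the WT CC libraries with this one, so its values are given only side by side. In WT CC against WT CB the Dusp16 peaks stood at -1.97 and -1.10, the CD45 peak at -1.46, the Ptpn13 peak at -2.03, the Ptpn14 peak at 1.43 and the Dusp6 peak at 0.49. The values of the other called peaks are not listed here. The shared libraries favour opposite signs in advance. A smaller change from CB to CC in HET is tested by the interaction, below, and not by these values. The number of called peaks was 8, 4 and 6 without WT CC replicate 1, 2 or 3, 2 without HET CC replicate 2 and 4 without HET CC replicate 4. Without 1 of the other libraries it reached 17. It was 1 with only the CC libraries fitted and 29 by DESeq2.

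**Figure D4:**
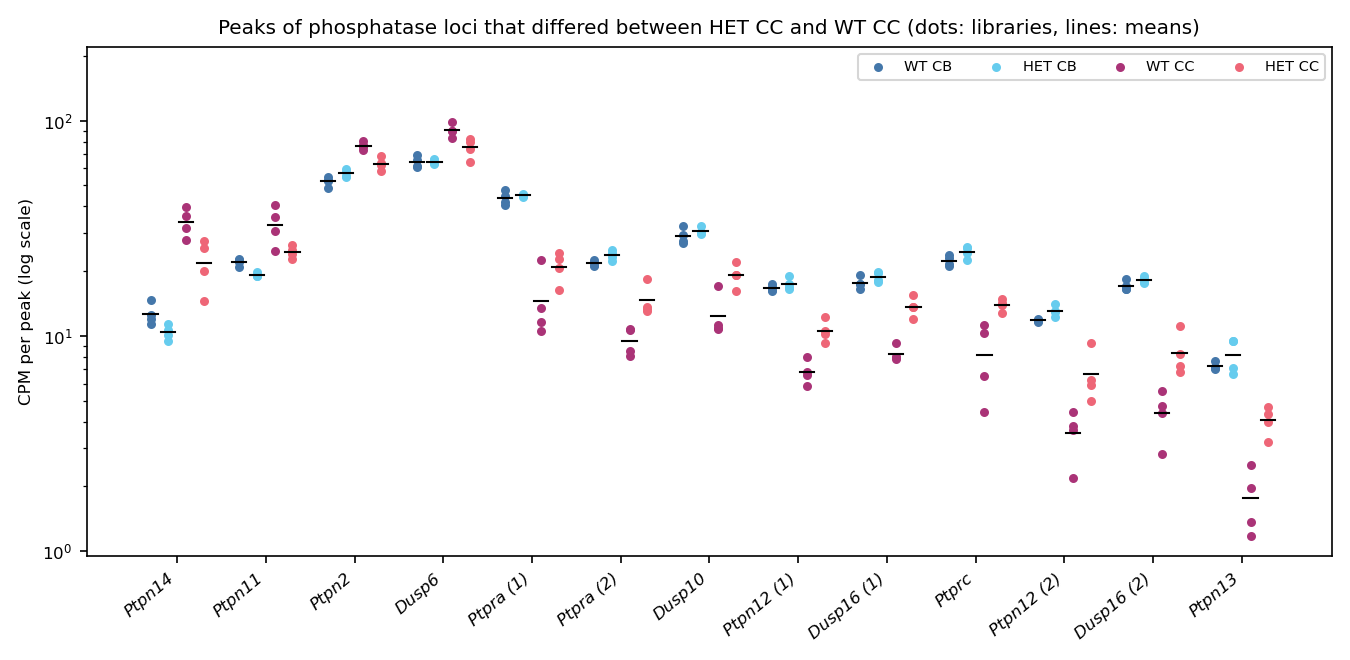
CPM per 501 bp peak (vertical log axis) in each library of the 4 groups for the 13 peaks called between HET CC and WT CC; dots are libraries and lines means. The first 4 peaks stand lower and the other 9 higher in HET CC than in WT CC, and the CC libraries overlap at Ptpn11, Dusp10 and the first Ptpra peak. The peaks were picked by a test on the same libraries, which favours separation.

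In CB, no phosphatase locus passed between HET and WT by the edgeR quasi-likelihood test, where 0.558% of all genes did (0.0332% higher and 0.525% lower in HET), and 9 of 55 had an unadjusted p below 0.05. DESeq2 gave no call among the loci either. The 3 with the smallest p were Ptpn14 (50.04, 57.2, 48 and 52.7 CPM in WT CB and 48.6, 38.7, 49.9 and 38.7 in HET CB, -0.24, SE 0.0836, adjusted p = 0.252), Ptpn3 (-0.30, adjusted p = 0.255) and Ptpro (-0.33, adjusted p = 0.28). At Ptpn3 every HET CB library lay below every WT CB library, and at Ptpn14 and Ptpro they overlapped. Of the 425 peaks none passed, where 0.129% of all peaks did (0.00243% higher and 0.127% lower), and 30 had an unadjusted p below 0.05. DESeq2 called 1 of them and the CB libraries fitted alone called 2, where 1076 of all peaks passed against 106 in the main fit.

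The interaction asks whether the difference between the genotypes was larger or smaller in CC than in CB. It passed at none of the 55 loci, against 0.412% of all genes (0.352% positive and 0.0598% negative), with 7 at an unadjusted p below 0.05 and 2 calls by DESeq2. The 3 with the smallest p were Ptpn2 (-0.24, SE 0.0758, adjusted p = 0.143), Dusp22 (-0.18, adjusted p = 0.193) and Dusp12 (-0.50, adjusted p = 0.236). A single peak passed, where 0.159% of all peaks did (0.128% positive and 0.0316% negative). It lies within 1 kb of an end of Ptpn2 and stood at 53.2, 52.4, 48.5 and 54.7 CPM in WT CB, 54.9, 57.9, 59.7 and 55.1 in HET CB, 80.6, 75.7, 77.2 and 73.1 in WT CC and 68.5, 63.7, 58.3 and 62.4 in HET CC. HET libraries were all higher than WT libraries in CB and all lower in CC (interaction -0.40, SE 0.0904, adjusted p = 0.0398). With 1 library left out, 12 of the 16 fits called none of the 425 peaks and that without WT CC replicate 4 called 3, and DESeq2 called 8.

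Kinases and other partners of these enzymes were counted from lists of textbook membership. Of 20 MAPK and upstream kinase loci 7 rose and 6 fell from WT CB to WT CC (median 0.11), where 63.3% of all genes passed (31.6% higher and 31.7% lower), a background that holds for the next 4 lists too. Among them were Map2k6, which activates p38 (420.4 ± 20.1 to 268 ± 15.2 CPM, -0.65), Map2k7, which activates JNK (0.63), and Map3k1 (0.32). Of 17 loci of ERK feedback and immediate early genes 8 were higher and 3 lower (median 0.11). Jun rose from 238 ± 7.42 to 439 ± 20.8 CPM (0.89), Spry2, an inhibitor of receptor tyrosine kinase signalling, by 1.17 and Ier2 by 0.45, while Atf3 fell by 0.37. Of 16 tyrosine kinase loci 5 were higher and 6 lower, with falls at Blk (-0.51), Tec (-0.34) and Jak2 (-0.42) and a rise at Zap70, the Syk-family kinase of T cells (1.01), which is also one of the T cell markers counted above.

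Of 18 loci of inhibitory receptors and adaptors that recruit SHP-1 or SHP-2, 7 were higher and 5 lower (median 0.02). Pecam1 (1.11) and Cd5 (0.84) rose, and Fcgr2b, the inhibitory Fc receptor of B cells, fell from 170.2 ± 5.22 to 118 ± 14.1 CPM (-0.52), as did Dok3 (-0.42). Of 19 other phosphatases of lymphocyte signalling 3 were higher and 9 lower (median -0.18), with Ubash3b, which acts on Syk, at 0.47, Inpp5b at -0.49, Cdc25b at -0.41 and Ppm1d at -0.44. All the partner loci named here had adjusted p-values of 2.15e-07 or smaller. Between HET CC and WT CC the 5 lists, in the order given, had 1, 0, 0, 0 and 1 higher and 2, 3, 1, 1 and 1 lower loci, against 6.65% of all genes. Jun (-0.26, adjusted p = 0.00258), Spry2 (-0.27) and Ier2 (-0.21) were lower in HET CC, and Map2k6 was higher (0.19).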

How the data were processed

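Omni-ATAC-seq was measured in 16 libraries, 4 in each of the groups WT CB, HET CB, WT CC and HET CC. The deposited table holds raw counts of reads in 82188 peaks of 501 bp, with no normalization. FastQC, BWA, deepTools, R 4.2.1 and build mm10 are named in the submitters' processing notes, and the peak caller, the counting step and their settings are not given in the sources used here. One peak set serves all libraries. Coordinates are those of mm10, counted from 1.

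Counts of the peaks assigned to a gene were summed. Genes and peaks were fitted separately in edgeR 4.0.16 (R 4.3.3) with TMM factors, the filterByExpr filter, which removed 0 of 15060 genes and 0 of 82188 peaks, and robust quasi-likelihood fits. All 16 libraries were fitted with 1 coefficient per group, and p-values were adjusted by Benjamini-Hochberg over all genes or all peaks. The 4 groups share 1 estimate of the spread, although CC replicates correlated less well than CB replicates. A result was called at an adjusted p below 0.05. CPM values use TMM-adjusted totals, values after ± are SDs with n = 4, and SE is that of the log2 change. The scripts were tested on simulated counts. The lower CC totals make counting error larger there.

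Named loci are the 8 largest called changes in each direction per comparison, a fixed set of lymphocyte phosphatases, and the loci called between genotypes or, with none, the 3 with the smallest p. Named peaks are the 5 largest called changes in each direction per comparison and, for each named locus, the peaks with the most counts and with the smallest p. Of each pathway list the 4 with the smallest p were named, except 1 that is not reported here. Further names are marked in the text or belong to called peaks. The members, the lists and this rule were chosen with earlier results of these data known, and the pathway and marker lists come from textbook membership. Alternatives were DESeq2 1.42.0, other scalings, filters, peak assignments, a replicate block and each library left out in turn.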

Additional observations from a re-analysis of the deposited data

Results flagged for a closer look

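A library far from the other three of its group was found in 10 of the 192 groups of 4 libraries examined, and chance gives about 1 in 20. Among the summed loci, Ptpn22 stood at 2.62 CPM in WT CB replicate 1, below the others at 2.98 to 3.05, and Ptpn12 at 136.21 CPM in HET CB replicate 2, below 146.32 to 147.78. Ptpre stood at 121.75 CPM in HET CC replicate 1, above 105.02 to 106.13. Dusp14 stood at 111.76 CPM in WT CB replicate 4, below 122.07 to 123.2, and at 132.18 CPM in HET CB replicate 4, above 123.46 to 124.08. The low loci Ptprg (0.94 CPM in HET CB replicate 4, with the others at 0.4 to 0.49) and Ptprm (2.52 CPM in HET CB replicate 3, with the others at 1.48 to 1.62) also had 1 high library.

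Of the peaks called between HET CC and WT CC, that of Dusp10 stood at 16.97 CPM in WT CC replicate 4 and at 10.71 to 11.19 in the others. The second Ptpra peak in the plot of these peaks stood at 18.47 CPM in HET CC replicate 4 and at 13.07 to 13.59 in the others, and the first Dusp16 peak at 9.3 CPM in WT CC replicate 3 and at 7.78 to 7.95 in the others.

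In the main fit, the difference between the genotypes was called unlike in CC and CB at 1 peak near an end of Ptpn2. Its interaction was -0.4 on the log2 scale, and it is the single peak of the 425 that passed that test. With the replicate block 0 peaks passed, and most fits with 1 library left out also called none.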

How the results depend on the processing

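The labels give the same replicate numbers in each group. Within a genotype, deviations of same-numbered CB and CC libraries over all genes had correlations from -0.002 to 0.092. These are small, but most CB libraries correlated best with the CC library of their own number. Between genotypes, same-numbered libraries had correlations from -0.238 to -0.008. The main fits treat all libraries as unpaired. A replicate block was tried in a form that differed by comparison. For CC against CB and for the interaction it paired CB and CC libraries of the same genotype and number. For HET against WT it tied the libraries of the same number in all 4 groups, a link across genotypes that the labels do not state. With these blocks, the called loci numbered 3 between HET CC and WT CC, 39 between WT CC and WT CB and 44 between HET CC and HET CB. The called peaks numbered 10, 275 and 273, and the interaction called 0 peaks.

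With DESeq2, the loci called were 6 between HET CC and WT CC and 2 in the interaction, and the peaks 1 between HET CB and WT CB, 29 between HET CC and WT CC and 8 in the interaction. With only the groups compared fitted, 1 locus and 1 peak were called between HET CC and WT CC and 2 peaks between HET CB and WT CB. Over all genes the genotype calls then went from 1001 to 271 in CC and from 84 to 492 in CB. Over all peaks they went from 1694 to 186 in CC and from 106 to 1076 in CB. The member counts therefore do not show a genotype difference limited to CC. With peaks of a mean CPM of at least 5, which leaves 273 of the 425 peaks, 183 were called between WT CC and WT CB and 179 between HET CC and HET CB. The causes were not tested, except that the last alternative tests fewer peaks.

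With 1 library left out, the called loci ranged from 0 to 5 between HET CC and WT CC, and the called peaks from 2 to 17 there and from 0 to 3 in the interaction. The other counts moved by less than 1.5 times, with 36 to 39 loci and 258 to 279 peaks between WT CC and WT CB, 42 to 44 loci and 267 to 282 peaks between HET CC and HET CB, 0 loci and 0 peaks between HET CB and WT CB, and 0 loci in the interaction.

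Using only the peak with the most counts of each gene turned the sign in WT CC against WT CB at Dusp10 (0.20), Dusp2 (0.19), Dusp4 (0.03), Dusp5 (-0.09), Ptpn11 (0.45), Ptpn12 (0.54) and Ptprc (0.11). It did so in HET CC against HET CB at Dusp10 (0.09), Dusp2 (0.04), Dusp22 (0.31), Dusp4 (0.03), Ptpn11 (0.28), Ptpn12 (0.43) and Ptprc (0.05), and with peaks within 1 kb of a gene Dusp22 turned there too (0.04). The fit of 1 peak per gene was also scaled anew, and it gave the same peaks log2 changes lower by a median of 0.13 in WT and 0.08 in HET than the fit of all peaks. In the latter the Dusp5 peak stood at 0.04 in WT, with the sign of the summed locus.

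Of the 209 named changes that passed, 3270 fits under alternatives left 3136 past the threshold in the same direction, 122 no longer past it and 12 reversed. Of 361 named values that did not pass, 6430 fits gave 41 calls without a change of sign and, besides these, 3 with the opposite sign. Scaling by total counts moved the share of higher calls between HET CC and WT CC from 48.4% to 61.1% over all genes and from 52.5% to 70.4% over all peaks, and in the interaction from 80.2% to 91.9% of peaks. With that scaling the members had 3 loci higher, 1 locus lower, 10 peaks higher and 1 lower in HET than in WT within CC. The CC totals limit what could be detected at loci with 1 or few peaks, where the smallest count of a locus in a library was 5. The smallest count of a single peak of these loci in a library was 0.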
